A study of Mus musculus with 15 samples.

Results

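A set of 10 genes that mark adipose progenitors was followed in periprostatic fat, the white fat depot around the prostate: Pdgfra, Pdgfrb, Ly6a, Cd34, Dpp4, Pi16, Icam1, Creb5, Dact2 and Wnt2. They were taken by symbol, and all 10 were among the 23995 symbols in the files. RNA of 15 male C57BL/6J mice was measured in 3 groups of 5. The HFD estradiol mice ate a high-fat diet, in which 60% of the energy is fat, and carried a 0.25 mg pellet of 17-beta-estradiol made to release for 60 days. The HFD placebo mice ate the same diet and carried a placebo pellet. The LFD mice ate a diet with 10% of its energy as fat and had no implant. Feeding started at an age of 6 weeks, the implants followed after 12 weeks on the diets, and fat was taken another 8 weeks later, at 26 weeks of age. LFD thus differs from the high-fat groups both in diet and in implantation. The tissue was whole frozen fat, so a lower level of a marker can come from fewer cells of a type or from less of its RNA per cell, and these cannot be told apart.

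Adipose progenitors are fibroblast-like cells of the fat stroma that can give rise to new adipocytes. In mouse fat, cells that carry DPP4 and PI16 lie in the connective tissue around the depot and are regarded as an early, multipotent pool. Cells that carry ICAM1 lie among the adipocytes and are regarded as more committed to the adipocyte fate. PDGFRA, SCA1 (the product of Ly6a) and CD34 mark both populations, whereas PDGFRB is shared with the mural cells of blood vessels.

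Values are FPKM, which count fragments by transcript length and library size, divided here by 1 factor per library so that the typical gene has the same level in all 15 libraries. In the scaled values, the mean over all libraries was highest for Ly6a at 10.1, followed by Cd34 at 8.82, Pi16 at 6.12, Pdgfra at 2.13, Pdgfrb at 1.75, Dpp4 at 1.35, Icam1 at 0.941, Creb5 at 0.588, Dact2 at 0.438 and Wnt2 at 0.0512. FPKM are per length, so these levels can be set side by side. The ranges of Ly6a and Cd34 overlapped in each of the 3 groups. Those of Pdgfra and Pdgfrb overlapped in HFD placebo and LFD mice, but in HFD estradiol mice the lowest Pdgfra value, 1.95, lay above the highest Pdgfrb value, 1.70. Of the 10 genes 7 reached the level for testing, a scaled FPKM of 1 in at least 5 libraries, and Creb5, Dact2 and Wnt2 did not. Icam1 reached it in 5 HFD placebo libraries, 1 HFD estradiol library and 0 LFD libraries. It was thus tested because of the group in which it was high, and had to differ, so it is left out of the counts over the tested genes.

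**Figure D1:**
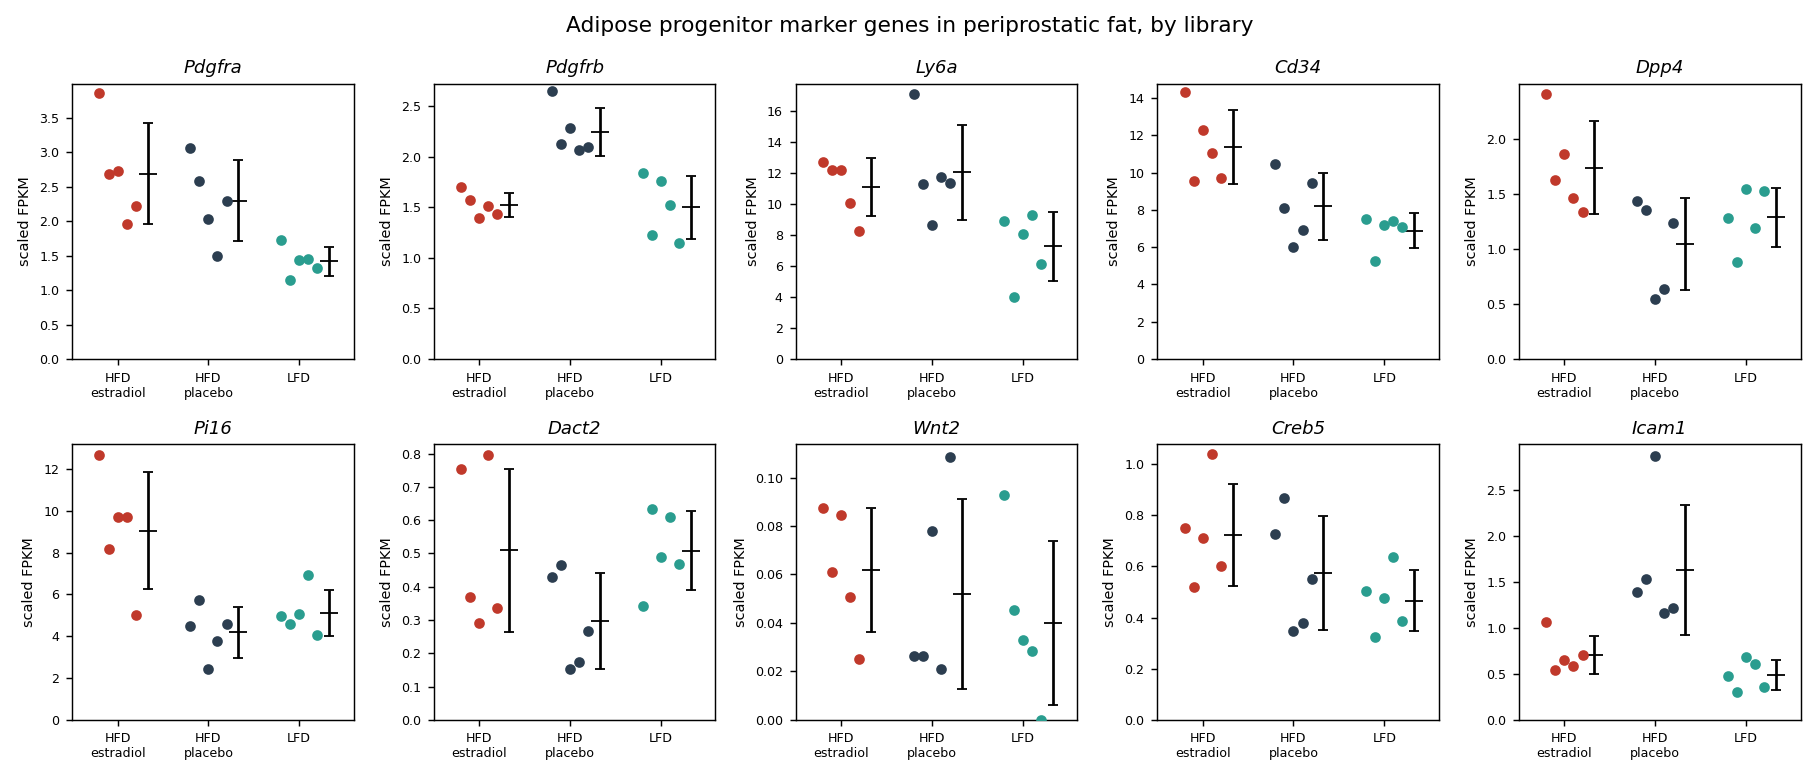
Scaled FPKM of the 10 genes in each of the 15 libraries, with 1 panel per gene and groups from left to right HFD estradiol, HFD placebo and LFD. Points are mice and bars are the mean and SD of 5 mice. Pi16 averaged 9.05, 4.20 and 5.11 in these groups, and Icam1 averaged 0.708, 1.63 and 0.484.

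The groups were compared with limma on log2(scaled FPKM + 1) over all 5615 genes tested. Each p is adjusted over those genes by the Benjamini-Hochberg method, and a gene is called where it lies under 0.05. Each group holds 5 mice throughout. A log2 fold change on this scale understates the change of low genes. Between HFD estradiol and HFD placebo, 3 of the 6 tested progenitor genes other than Icam1 were higher and 1 was lower, against 30.4% of all tested genes called, 14.3% higher and 16.0% lower. Groups did not overlap for 1 of the 6, which was lower, against 21.2% of all tested genes, 10.0% higher and 11.2% lower. The median log2 fold change of the 6 was 0.30, and that of all tested genes was 0.0082. Between HFD placebo and LFD, 3 of the 6 were higher and 0 lower, against 43.3% of all tested genes called, 21.3% higher and 22.0% lower. Groups did not overlap for 1 of the 6, which was higher, against 27.6% of all tested genes, 14.6% higher and 13.0% lower. The median of the 6 was 0.29, and that of all tested genes was -0.014. In HFD estradiol against LFD mice, 2 of the 6 were higher and 0 lower, against 7.69% of all tested genes called, 3.95% higher and 3.74% lower. Groups did not overlap for 2 of the 6, both higher, against 8.05% of all tested genes, 4.20% higher and 3.85% lower. Here the median of the 6 was 0.59 and that of all tested genes -0.0049. Each pair of these comparisons shares a group. A low or high HFD placebo value enters the first 2 with opposite sign.

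**Figure D2:**
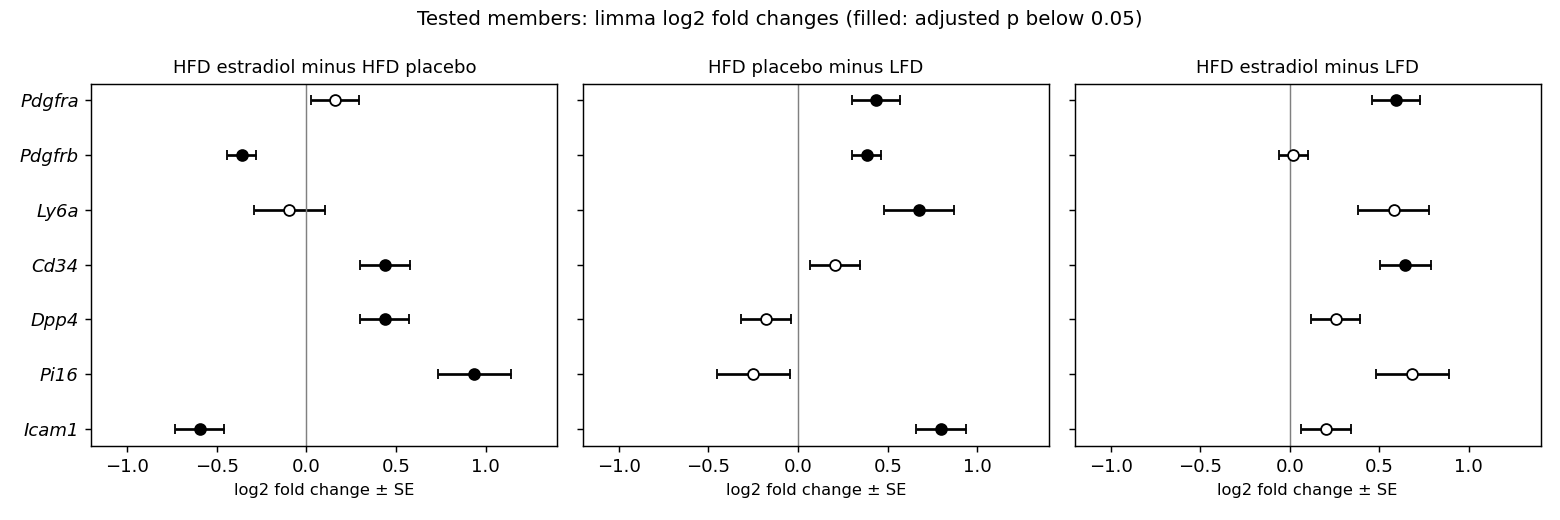
Log2 fold change of the 7 tested progenitor genes in each comparison, on the log2(scaled FPKM + 1) scale, with bars of 1 SE. Pi16 had the highest value between HFD estradiol and HFD placebo (0.94), and Icam1 had the highest between HFD placebo and LFD (0.80). Icam1 was tested because of the HFD placebo group.

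The libraries differed in total and in lane. FPKM summed to between 34449 and 105910 per library, and the 2 highest sums were those of HFD placebo mice 4 and 5. With FPKM left as deposited, the median of all tested genes lay at 0.77 between HFD placebo and LFD, at -0.27 between HFD estradiol and HFD placebo, and at 0.49 between HFD estradiol and LFD. With every library brought to a constant sum these medians were 0.28, -0.032 and 0.24. Of the genes called between HFD placebo and LFD, 49.2% were higher with the scaling used, 99.4% with FPKM as deposited and 91.6% with a constant sum. For HFD estradiol and HFD placebo these shares were 47.2%, 4.71% and 31.4%. For HFD estradiol and LFD they were 51.4%, 100% and 95.0%. By the names of the files, all HFD estradiol libraries lay on lane 6, all LFD libraries on lane 5, HFD placebo libraries 4 and 5 on lane 6 and HFD placebo libraries 1 to 3 on lane 5. HFD estradiol and LFD thus share no lane, and for that pair lane and group cannot be told apart except through the HFD placebo mice. The labelled tissue was checked by adipocyte markers, and Adipoq and Plin1 were present in all libraries, at means of 161 and 37.8 scaled FPKM in HFD estradiol, 80.0 and 22.5 in HFD placebo, and 166 and 46.2 in LFD mice. Markers of prostate and seminal vesicle epithelium summed to 126.8 scaled FPKM in LFD mouse 5, of which Spink3 made up 125.0, and to at most 0.479 in every other library. Without LFD mouse 5 no call among the 7 tested genes changed. Without HFD placebo mice 4 and 5, an alternative chosen after the data were seen, the calls of Cd34 and Dpp4 between HFD estradiol and HFD placebo were lost (adjusted p = 0.0548 and 0.0734, limma), and the other calls among the 7 genes stayed.

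Pdgfra encodes the alpha receptor for platelet-derived growth factors and is the broadest marker of adipose progenitors. The scaled FPKM was 3.86, 2.68, 2.73, 1.95 and 2.21 in HFD estradiol mice 1 to 5, 3.06, 2.59, 2.03, 1.50 and 2.30 in HFD placebo mice, and 1.72, 1.15, 1.43, 1.45 and 1.33 in LFD mice. All HFD estradiol mice lay above all LFD mice, and 1 of the 5 HFD placebo mice lay within the LFD range. Pdgfra was higher in HFD estradiol than in LFD mice by a log2 fold change of 0.59 ± 0.13 (SE, limma adjusted p = 0.0135), and by 0.89 with lane as a term (adjusted p = 0.0449). With FPKM as deposited it was 1.07 and the call was lost (adjusted p = 0.130). It was higher in HFD placebo than in LFD mice by 0.43 ± 0.13 (adjusted p = 0.0159) and by 0.55 within lane 5 (adjusted p = 0.00337). The value was 0.16 ± 0.13 (adjusted p = 0.398) between HFD estradiol and HFD placebo, and it was -0.083 with FPKM as deposited.

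Pdgfrb encodes the beta receptor, carried by progenitors and by pericytes and smooth muscle cells. Its scaled FPKM was 1.70, 1.57, 1.39, 1.51 and 1.44 in HFD estradiol mice, 2.65, 2.12, 2.28, 2.07 and 2.09 in HFD placebo mice, and 1.84, 1.23, 1.76, 1.53 and 1.14 in LFD mice. Every HFD placebo mouse lay above every mouse of the other 2 groups. Pdgfrb was lower in HFD estradiol than in HFD placebo mice, with a log2 fold change of -0.36 ± 0.080 (SE, limma adjusted p = 0.00257). It was higher in HFD placebo than in LFD mice by 0.38 ± 0.080 (adjusted p = 0.00113) and by 0.43 within lane 5 (adjusted p = 0.0131). Against LFD, HFD estradiol mice were at 0.021 ± 0.080 (adjusted p = 0.901). Within lane 6 the first difference was -0.29 (adjusted p = 0.0319), and with lane as a term in the fit it was -0.29 (adjusted p = 0.0868). With FPKM as deposited it was -0.65 (adjusted p = 0.423).

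Both receptors answer to PDGF ligands, of which Pdgfd reached the tested level and Pdgfa, Pdgfb and Pdgfc did not. Pdgfd averaged 0.927 ± 0.18 scaled FPKM in HFD estradiol, 0.874 ± 0.19 in HFD placebo and 0.723 ± 0.20 in LFD mice (SD, n = 5 each) and was called in none of the 3 comparisons (adjusted p 0.308 to 0.791, limma). The 4 ligands summed to 2.08 to 2.84 in HFD estradiol, 2.89 to 3.24 in HFD placebo and 2.01 to 2.59 in LFD mice. The HFD placebo sums did not overlap the others. Among all tested genes, 21.2% did not overlap between HFD estradiol and HFD placebo, and 27.6% between HFD placebo and LFD. With no filter on low genes, 1 ligand was called higher and 2 lower in the first of these comparisons. In the second, 1 was higher and 0 lower. Of the mural markers, Rgs5 averaged 3.76 ± 1.1, 5.34 ± 2.0 and 5.21 ± 0.54 in HFD estradiol, HFD placebo and LFD mice. The pericyte and smooth muscle list of 11 genes summed to 21.7 to 32.5 in HFD estradiol, 20.0 to 33.2 in HFD placebo and 22.9 to 31.3 in LFD mice, ranges that overlapped. Of its 8 tested genes, Cspg4, a pericyte proteoglycan, was lower in HFD estradiol than in HFD placebo mice (0.651 ± 0.11 against 1.18 ± 0.33, limma adjusted p = 0.00446) and Tagln, a smooth muscle protein, was higher (2.64 ± 0.91 against 1.42 ± 0.27, adjusted p = 0.0296). The mean of Cspg4 lay under the tested level of 1 in HFD estradiol mice, so its test may rest on other groups. With a filter on the mean, 6 genes of the list were tested, with 1 higher and 0 lower. With Cspg4 counted, the share of the 8 called was 25%, against 30.4% of all tested genes. With lane as a term, within lane 6 and at a constant sum none of the 8 was higher. The part of mural cells in the Pdgfrb values was not tested.

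In the GENCODE annotation of GRCm38, the assembly of mm10, Pdgfra lies at chr5:75152292-75198215, Ly6a at chr15:74994877-74998031, Cd34 at chr1:194938819-194961279, Dpp4 at chr2:62330073-62412231, Pi16 at chr17:29317680-29330593 and Icam1 at chr9:21015985-21028817. Creb5 lies at chr6:53287270-53700376, Dact2 at chr17:14195052-14204304 and Wnt2 at chr6:17988940-18030585. Exons of Pdgfra, Cd34, Dpp4, Pi16, Icam1 and Dact2 overlap those of a predicted gene on the opposite strand. The sources used here do not say whether the quantification used the strand of the reads, so reads of such pairs may not be told apart.

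Ly6a encodes SCA1, a lipid-anchored surface protein of mouse progenitors that is also made by endothelial cells and by some leukocytes. Its scaled FPKM was 12.7, 12.2, 12.2, 10.1 and 8.25 in HFD estradiol mice, 17.1, 11.3, 8.67, 11.7 and 11.4 in HFD placebo mice, and 8.91, 3.97, 8.05, 9.27 and 6.12 in LFD mice. HFD placebo mouse 3 and HFD estradiol mouse 5 lay within the LFD range, and the other mice on the high-fat diet lay above it. Ly6a was higher in HFD placebo than in LFD mice by a log2 fold change of 0.68 ± 0.20 (SE, limma adjusted p = 0.0113). Within lane 5 that value was 0.69, with the call lost (adjusted p = 0.0656). The value was 0.58 ± 0.20 (adjusted p = 0.0895) between HFD estradiol and LFD, or 0.92 and called at a constant sum (adjusted p = 0.0203), and between HFD estradiol and HFD placebo -0.095 ± 0.20 (adjusted p = 0.759). Ly6a belongs to a family of closely related neighbours, and the sources used here do not say how shared reads were assigned, so its level is uncertain.

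Cd34 encodes a sialomucin of progenitors, blood vessels and blood-forming cells. Scaled values of Cd34 were 14.3, 9.57, 12.3, 11.1 and 9.72 in HFD estradiol mice, 10.4, 8.11, 6.01, 6.95 and 9.46 in HFD placebo mice, and 7.49, 5.24, 7.20, 7.43 and 7.10 in LFD mice. All HFD estradiol mice lay above all LFD mice, and the HFD placebo mice overlapped both groups. Cd34 was higher in HFD estradiol than in LFD mice by a log2 fold change of 0.65 ± 0.14 (SE, limma adjusted p = 0.0113), although the call was lost with lane as a term (0.63, adjusted p = 0.187) and with FPKM as deposited (1.34, adjusted p = 0.135). It was higher in HFD estradiol than in HFD placebo mice by 0.44 ± 0.14 (adjusted p = 0.0273). That call was lost without HFD placebo mouse 3 or 4 or without HFD estradiol mouse 1 or 3, with adjusted p up to 0.0782. It was lost as well within lane 6 (0.43, adjusted p = 0.162), with lane as a term (0.43, adjusted p = 0.173), at a constant sum (0.39, adjusted p = 0.286), with FPKM as deposited (0.12, adjusted p = 0.899) and with no filter on low genes (0.44, adjusted p = 0.0553). For HFD placebo against LFD the value was 0.21 ± 0.14 (adjusted p = 0.257). It was called at a constant sum (0.60, adjusted p = 0.0252) and with FPKM as deposited (1.22, adjusted p = 0.0214), where all genes shift.

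Vessels were followed by 10 endothelial markers. They summed to 23.9 to 28.9 in HFD estradiol, 23.2 to 31.9 in HFD placebo and 26.2 to 31.4 scaled FPKM in LFD mice. Pecam1, an endothelial junction protein, averaged 5.55 ± 0.86, 5.71 ± 0.78 and 5.63 ± 0.41 in these groups (SD, n = 5 each). Of the 10 markers 1 was called higher between HFD estradiol and HFD placebo, which was Tek, the angiopoietin receptor (1.93 ± 0.25 against 1.34 ± 0.20, limma adjusted p = 0.00582), and 0 were called between HFD estradiol and LFD. The Tek call was lost with lane as a term, within lane 6, at a constant sum and with FPKM as deposited. Between HFD placebo and LFD 2 were called lower, but 0 were lower at a constant sum or with FPKM as deposited. These 2 were Kdr, the main receptor for vascular endothelial growth factor, and Emcn, an endothelial sialomucin (limma adjusted p = 0.00785 and 0.0400). The shares called were 10% between HFD estradiol and HFD placebo, 20% between HFD placebo and LFD and 0% between HFD estradiol and LFD. All lay under those of all tested genes, 30.4%, 43.3% and 7.69%.

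Pi16 encodes a secreted peptidase inhibitor that marks the early progenitor pool. The 250 bases before the start of Pi16, Dpp4 and Icam1 are shown because these 3 genes separate the early from the committed progenitors. The bases come from RefSeq for build GRCm38.p6, read 5′ to 3′ on the strand of the gene, and the RefSeq start of Pi16 lies inside the GENCODE span of the gene. In Pi16 the capitals mark TGACC, the reverse complement of GGTCA, which is 1 arm of the estrogen response element. In Icam1 they mark the only match to GGANNTTCC, a core pattern of NF-kappaB sites, and Dpp4 holds neither pattern.
Pi16, chr17:29318632-29318881, plus strand: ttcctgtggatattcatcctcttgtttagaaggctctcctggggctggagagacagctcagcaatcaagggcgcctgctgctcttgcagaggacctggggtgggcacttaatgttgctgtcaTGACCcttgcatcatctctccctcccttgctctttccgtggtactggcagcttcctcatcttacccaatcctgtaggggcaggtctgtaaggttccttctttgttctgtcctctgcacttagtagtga
Dpp4, chr2:62412232-62412481, minus strand: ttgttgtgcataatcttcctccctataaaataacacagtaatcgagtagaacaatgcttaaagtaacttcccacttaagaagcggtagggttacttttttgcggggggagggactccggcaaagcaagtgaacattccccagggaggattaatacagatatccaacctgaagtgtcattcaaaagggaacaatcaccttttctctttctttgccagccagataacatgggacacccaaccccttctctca
Icam1, chr9:21015690-21015939, plus strand: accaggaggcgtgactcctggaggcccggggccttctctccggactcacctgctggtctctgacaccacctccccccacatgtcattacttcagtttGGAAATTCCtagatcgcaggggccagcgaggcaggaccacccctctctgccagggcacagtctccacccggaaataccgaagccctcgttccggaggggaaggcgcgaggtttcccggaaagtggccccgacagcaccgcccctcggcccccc

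Promoters of 8 of the 10 genes, with 9 RefSeq entries, were searched on both strands over 250 bases. The full element, GGTCA and TGACC with 3 bases between them, was in none of the 9 entries and in 0.0639% of all 32851 promoters. Its arm GGTCA, which every full element also holds, was found in Pi16 at 128 bases before the start, in Cd34 at 91 and in Dact2 at 25, and in 35.2% of all promoters. The pattern GGANNTTCC was found in Icam1 at 153 bases before the start and in 3.59% of all promoters. Of 2 Creb5 entries 1 held TGANTCA, the pattern of AP-1 sites, and the other held TGACGTCA, the cyclic AMP response element, each at 45 bases before its start. These were in 6.75% and 1.55% of all promoters.

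The scaled FPKM of Pi16 was 12.7, 8.18, 9.69, 9.71 and 5.00 in HFD estradiol mice, 4.47, 5.74, 2.42, 3.77 and 4.59 in HFD placebo mice, and 4.95, 4.58, 5.04, 6.91 and 4.06 in LFD mice. HFD estradiol mice 1 to 4 lay above every other mouse, and mouse 5 lay within the ranges of HFD placebo and LFD. The mean was 9.05 ± 2.8 in HFD estradiol mice, 2.16 times that of 4.20 ± 1.2 in HFD placebo mice (SD, n = 5 each). Pi16 was higher in HFD estradiol than in HFD placebo mice by a log2 fold change of 0.94 ± 0.20 (SE, limma adjusted p = 0.00238). The value was 0.91 with lane as a term (adjusted p = 0.0435) and within lane 6 (adjusted p = 0.0622), and 0.66 with FPKM as deposited (adjusted p = 0.630). For HFD estradiol against LFD it was 0.69 ± 0.20 (adjusted p = 0.0515), and it was called at a constant sum (1.02, adjusted p = 0.00938) and with upper quartile scaling (0.69, adjusted p = 0.0493). It was -0.25 ± 0.20 (adjusted p = 0.340) between HFD placebo and LFD. The sign of this last value depended on the scaling, with 0.70 as deposited and 0.12 at a constant sum. Relative to the median of all tested genes it was -0.064 and -0.16 under these scalings.

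Dpp4 encodes a membrane peptidase that cleaves peptide hormones and chemokines and marks the same early pool. Scaled values of Dpp4 were 2.41, 1.62, 1.86, 1.46 and 1.34 in HFD estradiol mice, 1.43, 1.35, 0.546, 0.639 and 1.24 in HFD placebo mice, and 1.28, 0.884, 1.55, 1.19 and 1.52 in LFD mice. HFD placebo mice 3 and 4 were the lowest of the 15. Dpp4 was higher in HFD estradiol than in HFD placebo mice by a log2 fold change of 0.44 ± 0.14 (SE, limma adjusted p = 0.0247). That call was lost without HFD placebo mouse 3 or 4 or without HFD estradiol mouse 1 or 3, with adjusted p up to 0.0696, and within lane 6 or with lane as a term (0.50 for both, adjusted p = 0.0792 and 0.0936). It was lost as well with FPKM as deposited (0.27, adjusted p = 0.776), at a constant sum (0.44, adjusted p = 0.0560) and with no filter on low genes (0.44, adjusted p = 0.0534). Against LFD, the HFD estradiol value was 0.26 ± 0.14 (adjusted p = 0.302), or 0.48 and called at a constant sum (adjusted p = 0.0458). Between HFD placebo and LFD it was -0.18 ± 0.14 (adjusted p = 0.312), or 0.44 with FPKM as deposited and 0.043 at a constant sum. T cells and epithelia also make Dpp4. The T cell marker Cd3e was at most 0.0748 in HFD estradiol, 0.139 in HFD placebo and 0.0871 in LFD mice. A list of 8 T lymphocyte genes summed to 0.664 to 1.56 in HFD estradiol, 0.578 to 1.82 in HFD placebo and 0.814 to 1.82 in LFD mice. The epithelial marker Epcam was at most 0.0520 in HFD estradiol, 0.0194 in HFD placebo and 0.549 in LFD mice. The part of these cells in the Dpp4 values was not tested.

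Wnt2, a secreted Wnt ligand reported in early progenitors, was near the limit of detection. The scaled FPKM lay between 0.0253 and 0.0875 in HFD estradiol mice, between 0.0209 and 0.108 in HFD placebo mice, and between 0 and 0.0926 in LFD mice. The spacing of the lowest FPKM values put this at about 1.06 to 9.59, 1.07 to 24.5 and 0 to 4.26 fragments per library. Exact two-sided permutation tests on the mean scaled FPKM gave p = 0.603 between HFD estradiol and HFD placebo, 0.643 between HFD placebo and LFD and 0.294 between HFD estradiol and LFD, unadjusted over 9 such tests. The smallest p that 5 mice against 5 can give is 0.0079.

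Dact2, an intracellular protein that tempers Wnt and TGF-beta signalling, had a scaled FPKM of 0.753, 0.369, 0.291, 0.795 and 0.336 in HFD estradiol mice, 0.430, 0.464, 0.154, 0.173 and 0.267 in HFD placebo mice, and 0.342, 0.634, 0.490, 0.609 and 0.468 in LFD mice. HFD placebo mice 3, 4 and 5 were the lowest of the 15. The mean was 0.298 ± 0.14 in HFD placebo and 0.508 ± 0.12 in LFD mice (SD, n = 5 each, exact permutation p = 0.0397, unadjusted). With 1 mouse left out, the p of that difference ran from 0.0317 to 0.0873 and was no longer under 0.05 in 7 of 10 such tests. The p was 0.161 within lane 5 and 0.167 at a constant sum, and the difference turned to 0.109 with FPKM as deposited. The HFD estradiol mean was 0.509 ± 0.24, with exact permutation p = 0.151 against HFD placebo and p = 1 against LFD.

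Creb5, a transcription factor that binds cyclic AMP response elements, had a scaled FPKM of 0.749, 0.518, 0.711, 1.04 and 0.602 in HFD estradiol mice, 0.726, 0.868, 0.347, 0.380 and 0.553 in HFD placebo mice, and 0.505, 0.326, 0.478, 0.635 and 0.385 in LFD mice. The groups overlapped in all 3 comparisons. The mean of 0.724 ± 0.20 in HFD estradiol mice lay above that of 0.466 ± 0.12 in LFD mice (SD, n = 5 each, exact permutation p = 0.0317, unadjusted). With 1 mouse left out, this p was no longer under 0.05 in 7 of 10 tests and reached up to 0.0714. The exact permutation p was 0.278 between HFD estradiol and HFD placebo and 0.365 between HFD placebo and LFD. For the second, the difference in means was 0.11, but 0.24 at a constant sum (exact permutation p = 0.0397) and 0.57 with FPKM as deposited (p = 0.0079).

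Icam1 encodes an adhesion molecule that binds leukocyte integrins. It marks committed preadipocytes and is also carried by endothelial cells and leukocytes. Scaled values of Icam1 were 1.06, 0.541, 0.649, 0.584 and 0.707 in HFD estradiol mice, 1.39, 1.53, 2.87, 1.16 and 1.21 in HFD placebo mice, and 0.476, 0.297, 0.681, 0.608 and 0.356 in LFD mice. Every HFD placebo mouse lay above every other mouse, and HFD placebo mouse 3 stood highest. Because Icam1 was tested only through the HFD placebo mice, this and its calls against that group are descriptions only. Icam1 was lower in HFD estradiol than in HFD placebo mice, with a log2 fold change of -0.60 ± 0.14 (SE, limma adjusted p = 0.00381). The call was lost within lane 6 (-0.36, adjusted p = 0.0768) and with lane as a term (-0.36, adjusted p = 0.177). It was higher in HFD placebo than in LFD mice by 0.80 ± 0.14 (adjusted p = 2.52e-04) and by 0.95 within lane 5 (adjusted p = 0.00125). Against LFD, the HFD estradiol mice were at 0.20 ± 0.14 (adjusted p = 0.428). Icam1 in LFD mice rested on about 7.94 to 25.9 fragments per library.

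Leukocyte markers moved with Icam1. The macrophage and leukocyte list of 10 genes summed to 51.7 to 140 scaled FPKM in HFD estradiol, 136 to 423 in HFD placebo and 40.1 to 105 in LFD mice. Of its 9 tested genes 8 were lower in HFD estradiol than in HFD placebo mice, 9 were higher in HFD placebo than in LFD mice, and 2 were higher in HFD estradiol than in LFD mice. The shares called were thus 88.9%, 100% and 22.2%, against 30.4%, 43.3% and 7.69% of all tested genes. With lane as a term 3 of the 9 were lower in HFD estradiol than in HFD placebo mice, and within lane 6 it was 4. Cd68, a macrophage lysosomal protein, averaged 6.12 ± 2.4 in HFD estradiol, 31.6 ± 10 in HFD placebo and 2.73 ± 0.66 in LFD mice (SD, n = 5 each). Ptprc, the pan-leukocyte antigen CD45, averaged 1.72 ± 0.55, 4.45 ± 1.4 and 1.72 ± 0.41. The part of leukocytes in the Icam1 values was not tested.

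Each gene was also described by its ratio to Pdgfra within a library, which does not depend on how libraries are scaled. The ratio is of RNA in whole fat, so it does not give the make-up of the progenitors. The part of other cell types in it was not tested. This measure was chosen after the data were seen. All 8 ratios share Pdgfra, which was itself called higher in both high-fat groups than in LFD mice. A ratio can therefore move without a change in its first gene. The share of all tested genes whose ratio to Pdgfra separates the groups was not computed, so the ratios below have no background. Between HFD placebo and LFD the levels of Dpp4 and Pi16 were not called (-0.18 and -0.25), and that of Pdgfra was (0.43). The ratio was taken for 8 genes in 3 comparisons and tested by an exact two-sided permutation test of the mean log2 ratio, with p unadjusted. The ratio of Dpp4 to Pdgfra was 0.623, 0.605, 0.681, 0.747 and 0.605 in HFD estradiol mice, 0.468, 0.524, 0.269, 0.426 and 0.538 in HFD placebo mice, and 0.744, 0.769, 1.08, 0.820 and 1.15 in LFD mice. The HFD placebo mice lay below all mice of both other groups. The log2 ratio differed by 0.59 between HFD estradiol and HFD placebo (exact permutation p = 0.0079) and by -1.05 between HFD placebo and LFD (p = 0.0079). It was -0.46 between HFD estradiol and LFD (exact permutation p = 0.0159). Within lanes the first value was 0.44 (lane 6, exact permutation p = 0.0476, the smallest possible with 5 against 2) and the second -1.15 (lane 5, p = 0.0179, the smallest possible with 3 against 5).

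The ratio of Pi16 to Pdgfra had a median of 3.28 (2.26 to 4.97) in HFD estradiol, 2.00 (1.19 to 2.52) in HFD placebo and 3.52 (2.87 to 4.76) in LFD mice. Its log2 difference was 0.87 between HFD estradiol and HFD placebo (exact permutation p = 0.0159) and 0.56 within lane 6 (p = 0.190). Between HFD placebo and LFD it was -0.98 (exact permutation p = 0.0079) and within lane 5 -1.19 (p = 0.0179), and between HFD estradiol and LFD -0.11 (p = 0.635). All HFD placebo mice lay below all LFD mice.

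The ratio of Pdgfrb to Pdgfra took another order, with medians of 0.585 in HFD estradiol, 0.911 in HFD placebo and 1.07 in LFD mice. All HFD estradiol mice lay below all others. The log2 difference was -0.79 between HFD estradiol and HFD placebo and -0.85 between HFD estradiol and LFD (exact permutation p = 0.0079 for both), and -0.067 between HFD placebo and LFD (p = 0.698). Within lane 6 the first was -0.95 (exact permutation p = 0.0476). Pdgfrb itself was at 0.021 between HFD estradiol and LFD (limma adjusted p = 0.901), and Pdgfra was at 0.59 (limma adjusted p = 0.0135).

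The ratio of Icam1 to Pdgfra had medians of 0.275 in HFD estradiol, 0.590 in HFD placebo and 0.276 in LFD mice. Its log2 difference was -1.39 between HFD estradiol and HFD placebo (exact permutation p = 0.0079), 1.07 between HFD placebo and LFD (p = 0.0159) and -0.32 between HFD estradiol and LFD (p = 0.214), or -0.48 with 0.1 added to both FPKM (p = 0.0397). Within lane 6 the first was -1.28 (exact permutation p = 0.0476), and within lane 5 the second was 1.14 (p = 0.0536). Of the other ratios, Cd34 to Pdgfra was lower in HFD placebo than in LFD mice (-0.44, exact permutation p = 0.0238), but p was not under 0.05 without LFD mouse 3, 4 or 5 (p up to 0.0556). Between HFD estradiol and LFD it was -0.18 (exact permutation p = 0.214), with p = 0.0397 without HFD estradiol mouse 4. Between HFD estradiol and HFD placebo it was 0.26 (exact permutation p = 0.167), or 0.44 without HFD placebo mice 4 and 5 (p = 0.0357). Dact2 to Pdgfra was lower in HFD placebo (-1.55, exact permutation p = 0.0079) and in HFD estradiol mice (-0.99, p = 0.0476) than in LFD mice. The second of these p values was no longer under 0.05 in 8 of 10 tests with 1 mouse left out (exact permutation p up to 0.0873). Between HFD estradiol and HFD placebo the Dact2 ratio differed by 0.56 (exact permutation p = 0.206). For the Ly6a and Creb5 ratios with all mice, the exact permutation p was at or above 0.0635 in all 3 comparisons. The unadjusted p of the Creb5 ratio fell under 0.05 between HFD placebo and LFD with 0.1 added to both FPKM (-0.56, exact permutation p = 0.0238) or without HFD placebo mouse 2 (p = 0.0079). Between HFD estradiol and LFD it did so without HFD estradiol mouse 4 (exact permutation p = 0.0079), and that of the Ly6a ratio without LFD mouse 2 (p = 0.0397).

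**Figure D3:**
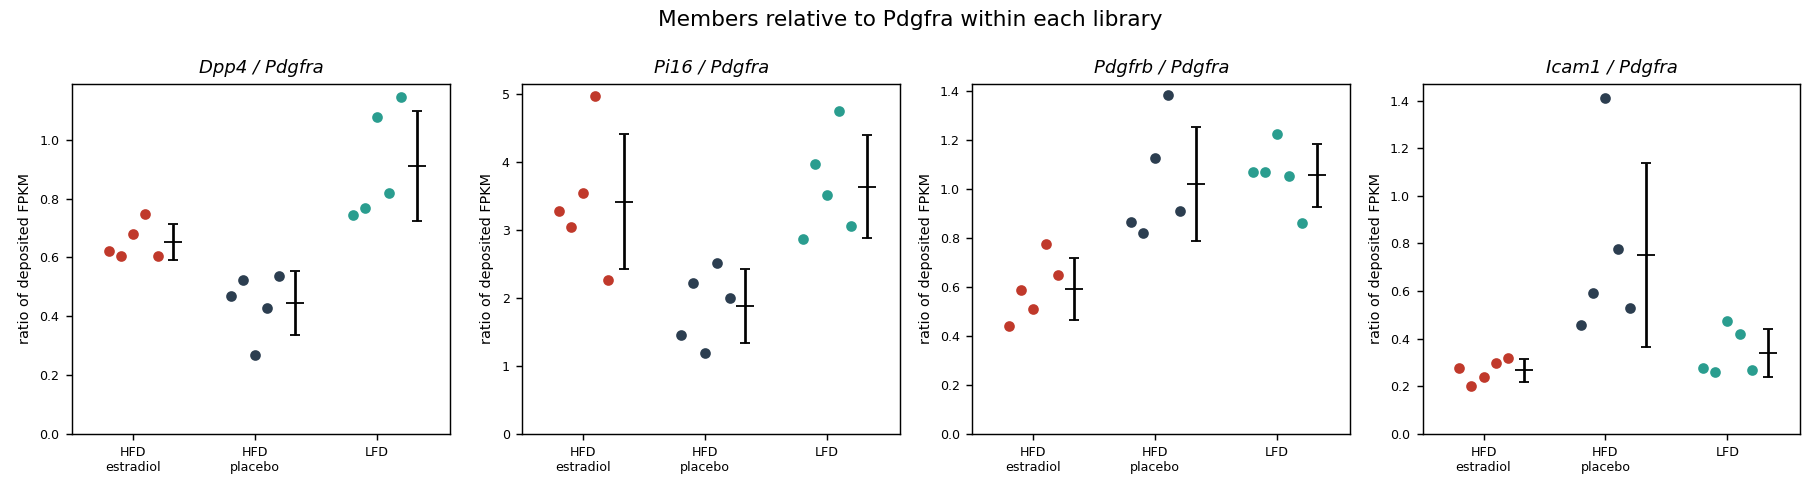
Ratio of deposited FPKM within each library for Dpp4, Pi16, Pdgfrb and Icam1 over Pdgfra, with groups from left to right HFD estradiol, HFD placebo and LFD. Points are mice and bars are the mean and SD of 5 mice. The HFD placebo mice were lowest for Dpp4, and the HFD estradiol mice were lowest for Pdgfrb.

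Other genes of the 2 progenitor stages were read from lists. Of 12 further genes linked to Dpp4-positive interstitial progenitors 11 were tested. HFD estradiol against HFD placebo had 3 higher and 1 lower, with a median of 0.13, and the 36.4% called lay near the 30.4% of all tested genes. Cd55, a brake on complement, averaged 7.36 ± 1.1 in HFD estradiol and 4.28 ± 1.3 in HFD placebo mice, and Efhd1, a calcium-binding mitochondrial protein, averaged 1.66 ± 0.47 and 0.639 ± 0.30 (SD, n = 5 each, limma adjusted p = 0.00146 and 0.00125). Efhd1 averaged 0.772 ± 0.17 in LFD mice. Its mean thus reached the tested level of 1 in HFD estradiol mice alone, and its test may rest on that group. The gene that fell was Tubb6, a tubulin, at 1.78 ± 0.58 in HFD estradiol and 4.48 ± 1.1 in HFD placebo mice (limma adjusted p = 3.48e-04). Within lane 6 the counts were 2 higher and 0 lower, so the call of Tubb6 was lost. They were 2 and 1 with lane as a term and at a constant sum, and 0 and 1 with FPKM as deposited. HFD placebo against LFD had 4 higher and 1 lower, with a median of 0.16, and the 45.5% called lay near the 43.3% of all tested genes. With upper quartile scaling, a filter on the mean or no filter, 2 were higher. Axin2, a feedback target of Wnt signalling, fell, at 0.475 ± 0.094 in HFD placebo and 1.81 ± 0.53 in LFD mice (limma adjusted p = 1.90e-05). The mean of Axin2 reached the tested level in LFD mice alone, so its test too may rest on 1 group. The counts of this list include Efhd1 and Axin2. HFD estradiol against LFD also had 4 higher and 1 lower, with a median of 0.37, and 45.5% called against 7.69% of all tested genes. With lane as a term or with FPKM as deposited 0 of the 11 were called, so that the calls of Axin2 and Sema3c were lost, and at a constant sum 7 were higher and 0 lower. Axin2 fell here too, at 0.875 ± 0.24 in HFD estradiol mice (adjusted p = 0.00812), whereas Sema3c, a secreted guidance protein, was higher at 3.90 ± 0.62 in HFD estradiol and 2.28 ± 0.57 in LFD mice (adjusted p = 0.00698).

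Of 12 committed preadipocyte genes 10 were tested. In HFD estradiol against HFD placebo mice 3 were higher and 2 lower, with a median of -0.055, and 50% called against 30.4% of all tested genes. The 3 higher calls were lost with lane as a term and within lane 6 (0 higher and 2 lower), at a constant sum (0 and 1) and with FPKM as deposited (0 and 0). Pparg, the master regulator of adipocyte differentiation, averaged 14.1 ± 2.6 in HFD estradiol and 9.40 ± 2.1 in HFD placebo mice (SD, n = 5 each, limma adjusted p = 0.0225), whereas the basement membrane collagen Col4a2 averaged 10.0 ± 1.6 and 15.1 ± 1.7 (adjusted p = 0.00482). In HFD placebo against LFD mice 3 were higher and 5 lower, with a median of -0.21, and 80% called against 43.3% of all tested genes. At a constant sum 4 were higher and 1 lower, and with FPKM as deposited 5 and 0. In HFD estradiol against LFD mice 1 was higher and 2 lower, with a median of -0.027, and 30% called against 7.69% of all tested genes. With lane as a term 0 were higher and 1 lower, and with FPKM as deposited 0 were called. In that comparison Hsd11b1, which regenerates active glucocorticoid, fell to 2.09 ± 0.45 in HFD estradiol mice, against 5.95 ± 1.7 in LFD mice (adjusted p = 4.98e-04). Pparg and several others of this list are also made by mature adipocytes. The 10 adipocyte markers summed to 932 to 1270 scaled FPKM in HFD estradiol, 352 to 594 in HFD placebo and 1088 to 1607 in LFD mice, and their part in these counts was not tested.

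Of 8 genes of CD142-positive regulatory cells 4 were tested, and Bgn, the matrix proteoglycan biglycan, alone was called. It averaged 7.00 ± 1.4 in HFD estradiol, 14.2 ± 4.6 in HFD placebo and 5.82 ± 2.0 in LFD mice (SD, n = 5 each, limma adjusted p = 0.00664 between HFD estradiol and HFD placebo and 7.08e-04 between HFD placebo and LFD). The share of the 4 called was 25% in both comparisons, against 30.4% and 43.3% of all tested genes. The Bgn call between HFD estradiol and HFD placebo was lost with lane as a term, within lane 6 and with FPKM as deposited. Of 17 tested general fibroblast genes 2 were higher and 6 lower between HFD estradiol and HFD placebo, 10 higher and 3 lower between HFD placebo and LFD, and 5 higher and 1 lower between HFD estradiol and LFD. These are 47.1%, 76.5% and 35.3% called, against 30.4%, 43.3% and 7.69% of all tested genes. The first count was 1 higher and 2 lower within lane 6, and 0 and 1 with FPKM as deposited. The second was 11 and 0 at a constant sum, and 12 and 0 with FPKM as deposited. The last was 3 and 0 with lane as a term, and 2 and 0 with FPKM as deposited. Ebf2, a transcription factor of adipose precursors, averaged 1.42 ± 0.11 in HFD estradiol and 0.718 ± 0.090 in HFD placebo mice (limma adjusted p = 1.43e-05), with 1.38 ± 0.14 in LFD mice. Its mean lay under the tested level of 1 in HFD placebo mice alone, so its test may rest on the other groups. Col3a1, a fibrillar collagen, averaged 24.6 ± 4.5 in HFD estradiol and 56.1 ± 15 in HFD placebo mice (adjusted p = 3.46e-04). Lum, the matrix proteoglycan lumican, averaged 7.33 ± 2.9 in HFD estradiol, 7.85 ± 2.0 in HFD placebo and 1.09 ± 0.33 in LFD mice, and was higher in both high-fat groups than in LFD mice (adjusted p = 8.91e-05 and 3.41e-06).

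**Figure D4:**
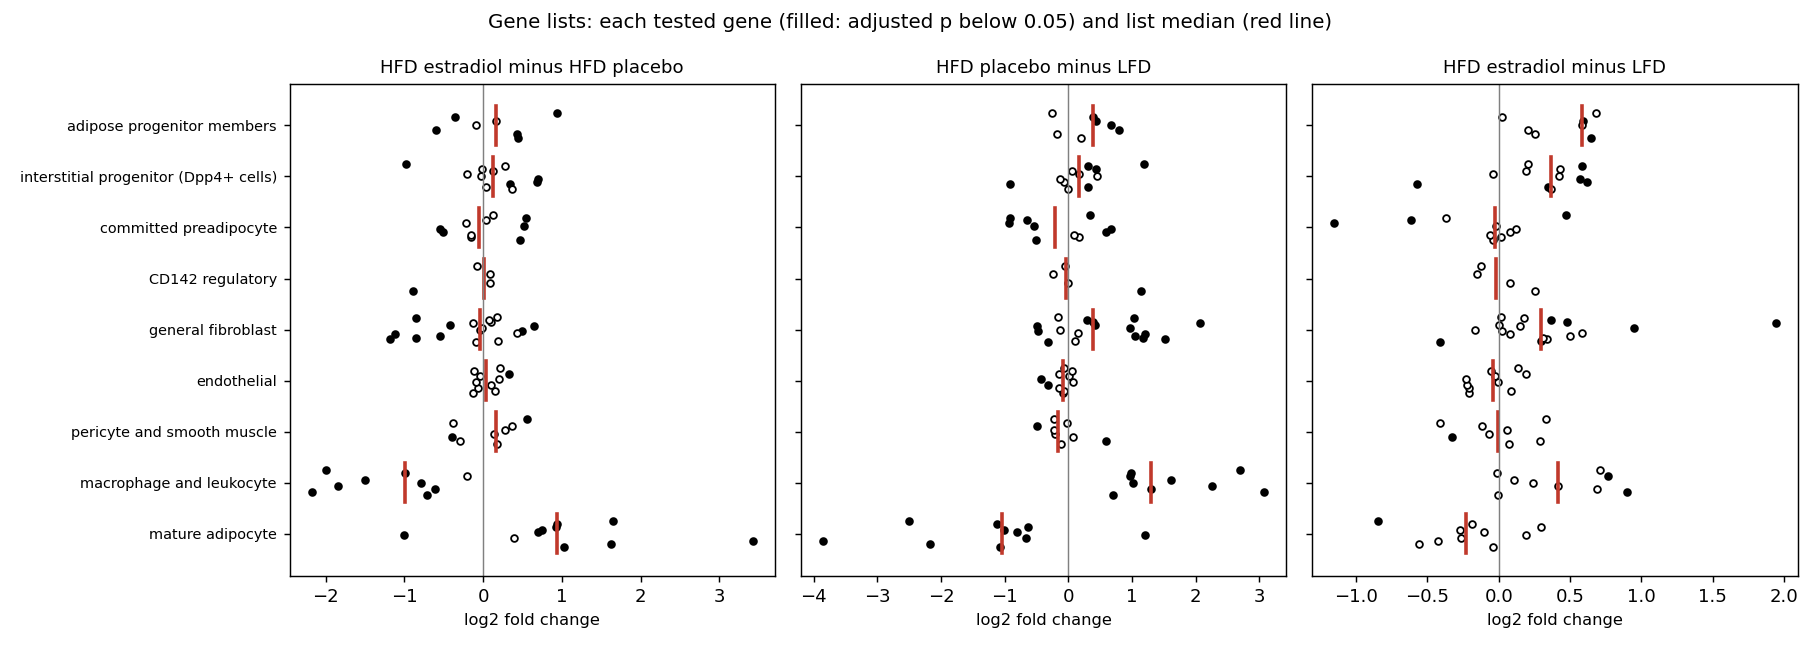
Log2 fold change of every tested gene of the progenitor, fibroblast and other cell type lists in the 3 comparisons, with filled points for an adjusted p under 0.05 and a red line at the median of each list. The macrophage and leukocyte median was -0.99 between HFD estradiol and HFD placebo and 1.30 between HFD placebo and LFD, and the mature adipocyte medians were 0.93 and -1.04.

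The likeness of profiles was measured by the root mean square distance between standardised log2 values over the 15 libraries. These libraries share their scaling and lanes, so the distances are descriptions. Among the 7 tested genes the closest pairs were Pdgfra with Cd34 at 0.566, Pdgfrb with Icam1 at 0.592, and Dpp4 with Pi16 at 0.605. The most distant were Icam1 with Pi16 and Icam1 with Dpp4, both at 1.61. Among all other tested genes, the 3 nearest to Dpp4 were Igfbp6 at 0.233, Efemp1 at 0.388 and Gpr133 at 0.394, against a median distance of 1.38 over all tested genes. The nearest to Pi16 were Ppap2b at 0.344, Efhd1 at 0.411 and Cd55 at 0.446, and Efhd1 and Cd55 are on the interstitial progenitor list. Those nearest to Cd34 were Col14a1 at 0.365, Lrrn4cl at 0.393 and C1s1 at 0.402. Pdgfra lay nearest to Clec10a at 0.364, C3 at 0.375 and Lsp1 at 0.375. Clec10a is a lectin of macrophages and dendritic cells and C3 is a complement protein. Pdgfrb lay nearest to Cttnbp2nl at 0.310 and Fli1 at 0.353, and Ly6a to Ifitm3 at 0.414, Pxn at 0.488 and Serping1 at 0.507. Icam1 lay nearest to Emr1 at 0.235, Hcls1 at 0.235 and Kctd12 at 0.239. Emr1 is the macrophage antigen F4/80, and Hcls1 is a cytoskeletal protein of blood cells.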

How the data were processed

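Stranded Illumina libraries were made from rRNA-depleted total RNA of 15 frozen fat samples, per the labels' protocols. The submitters' processing notes name STAR, Cufflinks and mm10 without versions. The annotation was not given in the sources used here. As values, the authors deposited FPKM by gene symbol, 1 file per library, with no read counts.

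Median-of-ratios factors, from 0.481 to 3.232, were computed from 5874 genes that were never at 0 and averaged 1 FPKM or more, and each library was divided by its own. The 5615 genes (of 23995) that reached a scaled FPKM of 1 in 5 or more libraries entered a fit with limma 3.58.1 (R 4.3.3) on log2(scaled FPKM + 1), with trend and robust moderation, group as the only factor, and Benjamini-Hochberg adjustment over all tested genes at 0.05. Members under the tested level and ratios to Pdgfra had exact two-sided permutation tests. Groups and numbers come from the labels, and lanes from file names. No 2 libraries held identical values, and correlations within groups ran from 0.927 to 0.979.

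The depth per library is not known from the files. It was estimated from the spacing of the lowest FPKM in 1692 genes with 1 transcript over 2000 bases, where 56.3% to 68.3% of low values fell within 2% of a whole multiple, so whole reads were not recovered and no count test was run.

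The members and gene lists were chosen with earlier results of these data known. The genes named are all members, up to 3 tested genes of each list with the smallest adjusted p in a comparison, fixed markers of other cell types, and the 3 genes nearest to each tested member by profile, of which 1 is not reported here. The symbols Adgre1 and Spink1 were matched as Emr1 and Spink3. Promoter sequences are those of RefSeq for GRCm38.p6, and positions those of GENCODE. Alternatives were other pseudocounts (0.1 and 0.5), filters, scalings, a replicate block, lane as a term, within-lane fits and each mouse left out.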

Additional observations from a re-analysis of the deposited data

Results flagged for a closer look

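Of 54 sets of 5 values, each a gene or a ratio in a group, 3 held a mouse far from the other 4, and chance alone gives about 1 in 20. Cd34 in LFD mouse 2 was 5.24 scaled FPKM, and the other LFD mice lay between 7.10 and 7.49. Icam1 in HFD placebo mouse 3 was 2.87 scaled FPKM, and the other HFD placebo mice lay between 1.16 and 1.53. Without that mouse the log2 fold change of Icam1 was -0.45 between HFD estradiol and HFD placebo and 0.65 between HFD placebo and LFD. Both were still called by limma, in a gene tested because of the HFD placebo group. The ratio of Creb5 to Pdgfra in HFD estradiol mouse 4 was 0.533, and the other HFD estradiol mice lay between 0.193 and 0.272.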

How the results depend on the processing

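With no paired mice in the labels, a replicate block is only a check. Correlations of the deviations of same-numbered mice ran from -0.21 to 0.36 over 15 pairs, 5 above 0.1, and 3 mice lay closest to their own number. With the block 2427 genes were called between HFD placebo and LFD, 1685 between HFD estradiol and HFD placebo and 431 between HFD estradiol and LFD. Of the progenitor genes 4, 5 and 2 were called, and no call among them changed. These counts and those below include Icam1. In the fit reported, without Icam1, 3 of 6 were higher and 0 lower between HFD placebo and LFD. It was 3 higher and 1 lower between HFD estradiol and HFD placebo, and 2 and 0 between HFD estradiol and LFD. Of all tested genes 43.3%, 30.4% and 7.69% were called.

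The same 5615 genes were tested in every alternative except those with another filter. Between HFD estradiol and HFD placebo 1706 genes (30.4%) and 5 of the 7 tested progenitor genes were called. It was 276 genes (4.92% of those tested) and 1 progenitor gene with FPKM as deposited, and 831 (14.8%) and 3 with a constant sum. It was 711 and 1 with lane as a term, 681 and 1 within lane 6, and 1665 and 3 without HFD placebo mice 4 and 5. With no filter it was 2606 and 3, but over all genes above 0 in any library, so this count cannot be set beside 1706. In HFD placebo against LFD mice 2431 genes (43.3%) were called, and 3908 with no filter, again over more genes. Between HFD estradiol and LFD, where 432 genes and 2 of the progenitor genes were called, 39 and 0 were called with FPKM as deposited, 162 and 1 with lane as a term, and with a constant sum 563 (10.0% of those tested) and 5, the 3 added being Ly6a, Dpp4 and Pi16. With FPKM as deposited, signs turned between HFD placebo and LFD for Dpp4 (0.44), Pi16 (0.70) and Dact2 (0.11), and between HFD estradiol and HFD placebo for Pdgfra (-0.083), Creb5 (-0.014) and Wnt2 (-0.025). A constant sum turned Dpp4 (0.043) and Pi16 (0.12) between HFD placebo and LFD. Within lane 6 Wnt2 was -0.0028 and the Cd34 ratio -0.021, and within lane 5 or without HFD placebo mice 4 and 5 the Ly6a ratio was -0.072. None of these values that turned was called in the fit reported, and only that of Dact2 had an unadjusted permutation p under 0.05. The cause was not tested. With FPKM scaled by the upper quartile, pseudocounts of 0.1 or 0.5, or limma without trend and robust moderation, no call among the progenitor genes was lost. In the interstitial list 4 genes were higher between HFD placebo and LFD, and 3 without trend and robust moderation and 2 with the block. Between HFD estradiol and LFD 4 were higher, and 3 with a pseudocount of 0.1 or the block.

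With 1 mouse left out, 1413 to 1838 genes and 3 to 5 of the progenitor genes were called between HFD estradiol and HFD placebo, 300 to 516 and 2 to 3 between HFD estradiol and LFD, and 2154 to 2504 and 4 in every case between HFD placebo and LFD. Pi16 between HFD estradiol and LFD, with adjusted p from 0.0104 to 0.130 by limma, passed without LFD mouse 4, HFD placebo mouse 2 or 3, or HFD estradiol mouse 5. Signs turned in these ranges for Wnt2 (-0.0020 to 0.025), the Pdgfrb ratio (-0.18 to 0.0049) and the Ly6a ratio (-0.054 to 0.18) between HFD placebo and LFD. They turned for Ly6a (-0.20 to 0.031) and the Creb5 ratio (-0.092 to 0.27) between HFD estradiol and HFD placebo, and for Pdgfrb (-0.032 to 0.069), Dact2 (-0.071 to 0.055) and the Pi16 ratio (-0.26 to 0.027) between HFD estradiol and LFD. By the estimate of depth Wnt2 rested on 0 to 24.5 fragments per library and Dact2 on 18.7 to 122.5.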
